A study of Homo sapiens with 3 samples.

Results

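The human miRNAs whose names end in -5p or -3p were examined in RNA bound to Argonaute2 (Ago2) in Hep G2 cells, a line derived from a human liver tumour. All human names with either ending were taken, up to a fixed limit on the miRNA number and with 1 name left out, which gave 150 of the 851 human names on the array. No measured value entered this rule, though it was chosen with earlier results of these data known. In 68 cases both arms of 1 hairpin were present, accounting for 136 names, and the other 14 names had no partner on the array.

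Ago2-associated RNA was recovered with an anti-human Ago2 antibody (Ago2-IP) and 10 ng of it was labelled with Cy3 for an Agilent miRNA array. The cells had received 5 nM of a mimic of miR-195, 5 nM of a mimic of miR-497, or no mimic (non-treated), and were harvested 24 hours later. Each of these 3 groups held 1 array, and the 3 arrays lay on 1 slide. The comparisons address which endogenous miRNAs occupied the RNA-induced silencing complex (RISC) beside the transfected one. The control was non-transfected, so what the transfection did and what the miRNA did cannot be told apart. With 1 array per group, no difference below has a replicate check or a test.

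A miRNA hairpin is cut by Dicer into a short duplex with 1 strand from each arm. In most hairpins Ago2 retains a strand from a preferred arm as the guide, and the other strand is released and degraded. The bases from position 2 to 8 of the guide, its seed, pair with target mRNAs, so the 5p and 3p products of 1 hairpin regulate different genes. In the nomenclature of this array an asterisk marks the minor arm of a hairpin, while the endings -5p and -3p were used where no arm had been called the minor one. Ago2-IP enriches for strands loaded into Ago2, and the 5p and 3p names give each arm its own signal there. No control immunoprecipitation was analysed here, and the share of RNA carried over without Ago2 was not tested. Less miRNA in the cells and less of it bound to Ago2 cannot be told apart in these data.

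The mature sequences below are the RefSeq entries of the same names (GRCh38.p14), 5′ to 3′ with the seed in capitals, and may differ from those on which the array was designed. Of the 150 names, 121 had an entry, and 0 of these carried the seed shared by miR-195 and miR-497. Shown first are hairpins with both arms detected on all 3 arrays, except miR-151 and miR-483, whose names had no entry. Then come a pair of hairpins that kept 1 arm on the dimmest array and 2 strands that are nearly identical. Last is the single name that was detected after miR-195 transfection only.
hsa-miR-140-5p: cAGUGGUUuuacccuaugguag
hsa-miR-140-3p: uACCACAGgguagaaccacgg
hsa-miR-142-5p: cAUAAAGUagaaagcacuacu
hsa-miR-142-3p: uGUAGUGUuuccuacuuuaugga
hsa-miR-324-5p: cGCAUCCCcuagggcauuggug
hsa-miR-324-3p: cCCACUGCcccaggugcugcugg
hsa-miR-361-5p: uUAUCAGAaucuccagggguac
hsa-miR-361-3p: uCCCCCAGgugugauucugauuu
hsa-miR-455-5p: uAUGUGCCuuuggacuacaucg
hsa-miR-455-3p: gCAGUCCAugggcauauacac
hsa-miR-501-3p: aAUGCACCcgggcaaggauucu
hsa-miR-502-3p: aAUGCACCugggcaaggauuca
hsa-miR-296-5p: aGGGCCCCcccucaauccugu

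The arms of each hairpin carry different seeds, whereas hsa-miR-501-3p and hsa-miR-502-3p share the seed AUGCACC. Counted from the 5′ end of hsa-miR-501-3p, their 22 bases differ at 2 positions, C9U and U22A, and their signals may therefore not be separable by hybridisation. This was the 1 seed of 8 shared among the names for which any member was detected. Uridine was the first base of 38.7% of the 31 detected names with a sequence and of 38.9% of the 90 undetected ones, and the median GC content was 47.8% and 51.1%.

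Signals below are spot intensities after background subtraction, averaged over the spots of a probe and summed over the probes of a name. A name is called detected on an array when more than 50% of the used spots of at least 1 of its probes carried the scanner software's flag for a signal well above background. The spot SD given with a value measures how far the spots on 1 array scatter, not how cultures or immunoprecipitations vary. It is the SD of single spots, so it is wider than the error of the means over spots on which a value rests. Since probes differ in affinity, a brighter 5p than 3p probe does not show more 5p strand, and arm usage is described by detection and by the change of the 5p to 3p ratio between arrays. As a check of the labels, hsa-miR-195 gave 45.3 units in non-treated cells, 38522 after miR-195 and 32.8 after miR-497, and hsa-miR-497 gave 11.8, 45.4 and 7903 units. Signals are given in that array order throughout. The miR-497 array was the dimmest, with a 75th percentile of the commonly detected probes of 263 units, compared with 827 and 778 on the others.

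Of the 150 names, 39 (26.0%) were detected in non-treated cells, 34 (22.7%) after miR-195 and 23 (15.3%) after miR-497. Over all 851 human names the shares were 19.7%, 18.0% and 14.2%, and over the other 701 human names 18.4%, 17.0% and 13.98%. The 701 include the names with an arm ending that the choice left out. In all, 40 names were detected on at least 1 array, 23 on all 3 and 110 on none. Detection rested on 1 probe out of several for 20 of the 39 names in non-treated cells, and for 15 names after each mimic. Signals of the detected names ran from 11.1 to 1521 units in non-treated cells, with a median of 126 and a median spot coefficient of variation of 7.77%. The corresponding coefficients after miR-195 and miR-497 were 8.68% and 11.46%.

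Many of the undetected names belonged to clusters with restricted expression. None of the 18 names from the primate-specific chromosome 19 cluster, which is active in placenta, was detected on any array. The same held for the 16 names of the list for the imprinted 14q32 cluster, the 7 names of the X chromosome cluster known from testis, and the 2 names of the miR-371 to miR-373 cluster of pluripotent cells. Both arms of hsa-miR-127, which lies in the 14q32 cluster but was not on that list, were undetected as well. Among 8 names of the primate miR-548 family, hsa-miR-548c-5p was detected, on the non-treated array at 43.1 units (spot SD 7.33), with 33.9 and 29.4 units below the detection rule on the others. The brightest undetected name on the non-treated array was of the same family, hsa-miR-548d-5p at 37.7 units, so the family's 5p arms lay on both sides of the rule. The remaining 89 names outside any list gave 31 detected ones.

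In contrast to these families, 8 of the 10 names of the Xp11 cluster were detected. This cluster lies within CLCN5, the gene of a chloride channel, in the RefSeq annotation (GRCh38.p14). All 8 were detected in non-treated cells, 7 after miR-195 and 3 after miR-497. The 2 exceptions were both arms of hsa-miR-188, undetected on every array.

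Marker names for other cell types were set beside these values. Of 5 liver names, hsa-miR-192 and hsa-miR-194 were detected on all 3 arrays and hsa-miR-148a on 2, while hsa-miR-122, the most abundant miRNA of hepatocytes, was not detected, with signals of 3.62, -0.24 and 5.62 units. Of 6 blood names the arms hsa-miR-142-3p, hsa-miR-142-5p and hsa-miR-486-5p were detected on every array, and hsa-miR-223, hsa-miR-150 and hsa-miR-451 on none. The summed signals of the blood list were 1969, 1649 and 506.3 units. For the 5 mesenchymal names and the 3 neural names a single detection each was found, in non-treated cells, and 0 of 3 placental or pluripotent names was detected. The source of the signals for hsa-miR-142 and hsa-miR-486 was not tested.

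Arm usage was then classed for each hairpin on each array. Both arms were detected for 13 of 68 hairpins in non-treated cells, 11 after miR-195 and 5 after miR-497. The 5p arm alone was detected for 7, 9 and 9 hairpins, and the 3p arm alone for 4, 3 and 4. Hairpins with neither arm detected numbered 44, 45 and 50. No hairpin went from the 5p arm alone on 1 array to the 3p arm alone on another, and 11 of the 25 hairpins with any detected arm kept their class on all 3 arrays. The share of detected hairpins with both arms was 54.2% of 24, 47.8% of 23 and 27.8% of 18. For hairpins whose minor arm carries an asterisk, this share was 15.3% of 72, 11.6% of 69 and 6.67% of 60. The part of array brightness in these shares was not tested.

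**Figure D1:**
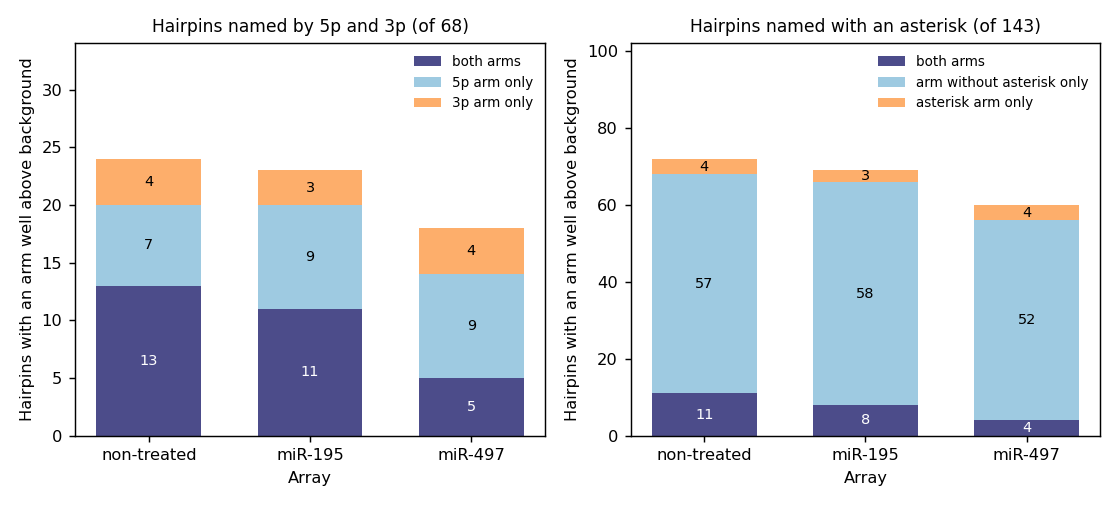
Number of hairpins with an arm well above background on each array, split by which arm was detected, for the 68 hairpins named by 5p and 3p arm (left) and for those named with an asterisk (right). Among the former, hairpins with both arms went from 13 to 11 to 5, and among the latter from 11 to 8 to 4.

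In 5 hairpins, miR-140, miR-142, miR-151, miR-324 and miR-483, both arms were detected on every array. The hairpin miR-140, located in the ubiquitin ligase gene WWP2 and known from cartilage, gave 388, 414 and 142 units for its 5p arm. The 3p arm of miR-140 gave 216, 197 and 68.9 units. Both arms were lowest on the miR-497 array, as was the whole array. hsa-miR-142-5p gave 191, 182 and 57.1 units and hsa-miR-142-3p, known as a miRNA of blood cells, 1521, 1244 and 397 units. The latter had the highest signal of all arm-named miRNAs in non-treated cells, with a spot SD of 234 units.

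hsa-miR-151-5p gave 1383, 1489.6 and 566 units, the highest values of any arm-named miRNA on both arrays from transfected cells. Its partner hsa-miR-151-3p gave 161, 129.9 and 50.8 units. The 5p arm was thus slightly higher and the 3p arm lower after miR-195 than in non-treated cells. For miR-324, which lies in ACADVL, the gene of a mitochondrial fatty acid dehydrogenase, the 5p arm gave 218, 193 and 54.2 units and the 3p arm 381.6, 314 and 83.9 units. Both of its arms were highest in non-treated cells and lowest after miR-497. miR-483, within IGF2, the gene of a fetal growth factor, gave 251, 284 and 109.8 units for the 5p arm and 141, 157 and 53.1 units for the 3p arm. Each arm was highest after miR-195.

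A further 6 hairpins had both arms detected in non-treated cells and after miR-195, and lost 1 arm or both on the miR-497 array. hsa-miR-455-3p, from COL27A1, a collagen gene, gave 1341, 1070.5 and 358 units, and hsa-miR-455-5p gave 60.5, 61.6 and 13.98 units. Only the 3p arm remained detected after miR-497. hsa-miR-361-5p, from CHM, gave 380.8, 289.7 and 118 units, and hsa-miR-361-3p gave 27.1, 23.7 and 8.57 units. hsa-miR-574-5p gave 106, 105 and 43.8 units, and hsa-miR-574-3p 58.7, 59.1 and 13.5 units. For miR-361 and miR-574 it was the 5p arm that stayed detected.

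The other 3 of these hairpins lie in CLCN5. hsa-miR-362-5p gave 339.6, 369.7 and 119 units, while hsa-miR-362-3p gave 53.5, 45.4 and 19.5 units and was not detected after miR-497. hsa-miR-502-3p gave 86.6, 81.8 and 27.4 units, and its partner hsa-miR-502-5p, undetected after miR-497, gave 30.8, 35.9 and 9.80 units. The arms of miR-501 were both lost there, with hsa-miR-501-5p at 70.9, 59.8 and 19.7 units and hsa-miR-501-3p at 46.4, 35.3 and 7.17 units. The arm detected on all arrays was thus the 5p arm in miR-362 and the 3p arm in miR-502. Of the 4 probes of hsa-miR-501-3p, 1 was detected in non-treated cells and after miR-195, and the near-identity with hsa-miR-502-3p shown above leaves its separate level uncertain.

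Another 2 hairpins showed both arms in non-treated cells alone. hsa-miR-532-5p, also from CLCN5, gave 198, 193 and 56.5 units, and hsa-miR-532-3p 23.6, 13.2 and 1.63 units. hsa-miR-582-5p, from PDE4D, the gene of a cyclic AMP phosphodiesterase, gave 126, 142 and 47.1 units. Its partner hsa-miR-582-3p gave 11.1, 7.89 and 0.90 units, and with a spot SD of 6.72 units in non-treated cells it had the highest spot coefficient of variation of all detected names, 60.4%. It was the dimmest name detected on that array. In both hairpins the 5p arm was detected throughout.

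**Figure D2:**
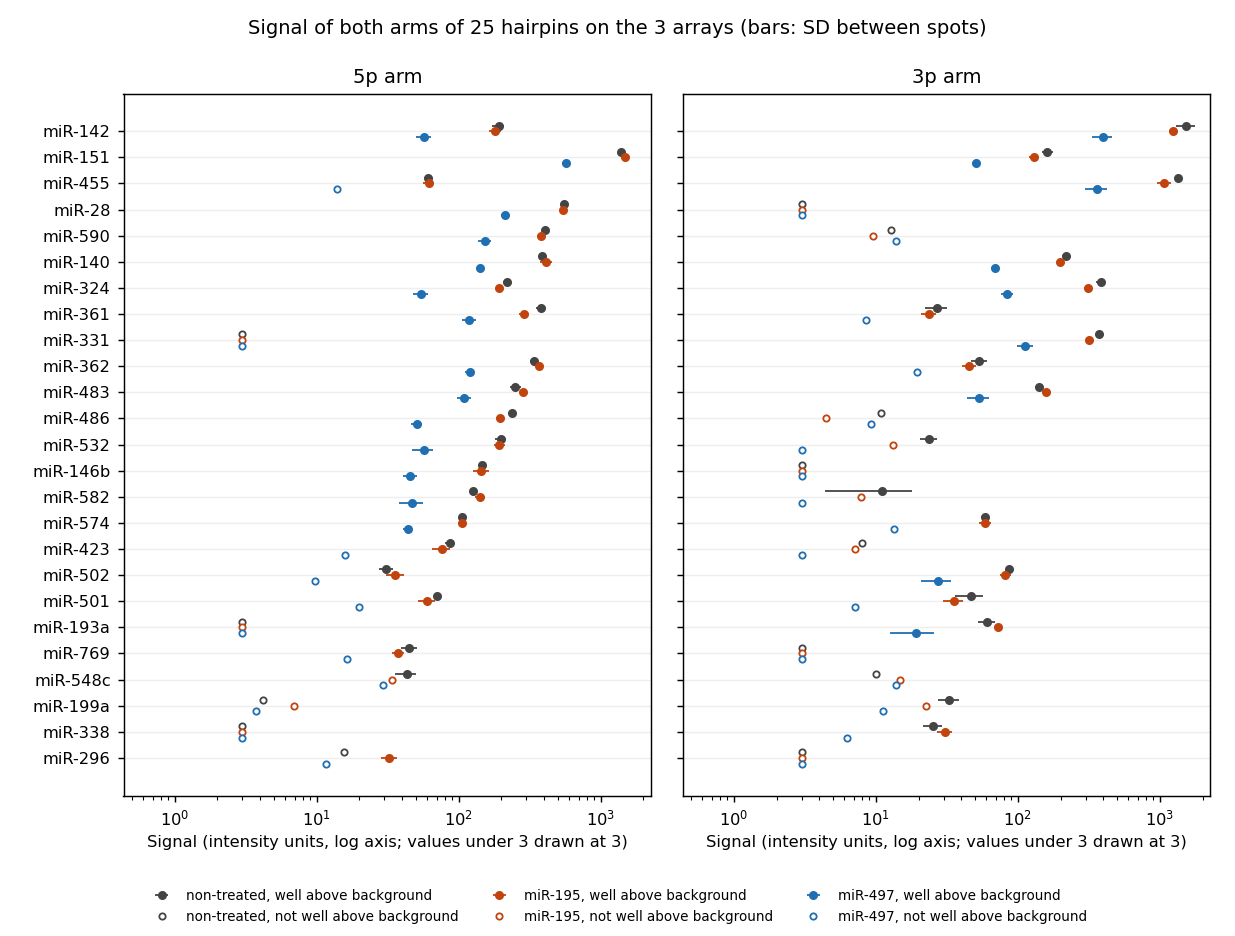
Background-subtracted signal in intensity units (log axis) of the 5p arm (left) and the 3p arm (right) of the 25 hairpins with any detected arm, on the 3 arrays, with bars for the SD between spots and open circles for arms not well above background. The miR-497 array lies to the left of the others for most arms, for example at 142 compared with 388 and 414 units for hsa-miR-140-5p.

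For 6 hairpins the same single arm was detected on all 3 arrays. hsa-miR-28-5p, from LPP, gave 552, 542 and 213 units, with its 3p partner at -14.3, -18.0 and -13.2 units after background subtraction. hsa-miR-590-5p, from the translation factor gene EIF4H, gave 405, 378 and 153 units, and its 3p partner stayed between 9.51 and 13.97 units. The partners of both stayed at or near background. hsa-miR-146b-5p, a feedback inhibitor of NF-κB signalling, gave 146, 145 and 45.7 units, and its 3p partner was below 0 on every array. hsa-miR-486-5p, which is abundant in erythroid cells and muscle, gave 237, 194 and 50.6 units, and its undetected partner 10.9, 4.44 and 9.18 units.

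The single arm was the 3p arm in miR-331 and miR-193a. hsa-miR-331-3p gave 374, 316 and 112 units and hsa-miR-331-5p -10.4, -24.0 and -18.0 units. hsa-miR-193a-3p gave 60.9, 72.4 and 19.1 units and hsa-miR-193a-5p -10.8, -13.0 and -11.0 units. The 5p names of both hairpins were below 0 on all 3 arrays.

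In 3 hairpins the single detected arm was lost on the miR-497 array only. hsa-miR-423-5p, from NSRP1, a splicing regulator gene, gave 86.6, 76.0 and 15.8 units. hsa-miR-338-3p, from AATK, a kinase gene, gave 25.2, 30.7 and 6.24 units, and hsa-miR-769-5p gave 45.0, 37.6 and 16.3 units. None of their partners hsa-miR-423-3p, hsa-miR-338-5p and hsa-miR-769-3p was detected on any array. With its miR-497 value set to the lowest detected human signal of that array, hsa-miR-423-5p changed by -0.53 log2 units after scaling, or 1.44-fold lower. The same setting gave no decrease for hsa-miR-338-3p and hsa-miR-769-5p.

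hsa-miR-199a-3p, abundant in mesenchymal cells, was detected in non-treated cells only, with 32.8, 22.5 and 11.2 units. Its partner hsa-miR-199a-5p was undetected, with signals from 3.76 to 6.94 units. hsa-miR-548c-5p, described above, likewise left its partner hsa-miR-548c-3p undetected. Of the 14 names without a partner, hsa-miR-199b-5p and hsa-miR-219-5p, a neural miRNA, were detected, both in non-treated cells only. hsa-miR-199b-5p gave 20.3, 20.5 and 12.5 units and hsa-miR-219-5p 26.0, 30.01 and 8.25 units. For both, the undetected value on the miR-195 array was no lower than the detected value in non-treated cells.

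The reverse case was hsa-miR-296-5p, the single name gained on an array from transfected cells. It gave 15.5 units (spot SD 2.73), 32.5 units (spot SD 4.35) and 11.7 units (spot SD 2.25), and passed the detection rule on the miR-195 array through 1 of its 2 probes. After scaling it was 1.16 log2 units, or 2.23-fold, higher on the miR-195 array than its own undetected signal in non-treated cells. This is not a lower limit, because undetected names on the non-treated array reached 37.7 units. Its partner hsa-miR-296-3p was below 0 on all arrays.

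Names lost from an array were dim in non-treated cells. After miR-195, 6 names were lost whose signals in non-treated cells lay between 11.1 and 43.1 units, while the 33 names kept lay between 25.2 and 1521 units. After miR-497, 16 names were lost, 8 of each arm, with signals in non-treated cells between 11.1 and 86.6 units and a median of 38.0. The 23 names kept lay between 60.9 and 1521 units, with a median of 237. The ranges of lost and kept names overlapped in both cases. Array brightness moved with these losses, and its part in them was not tested.

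**Figure D3:**
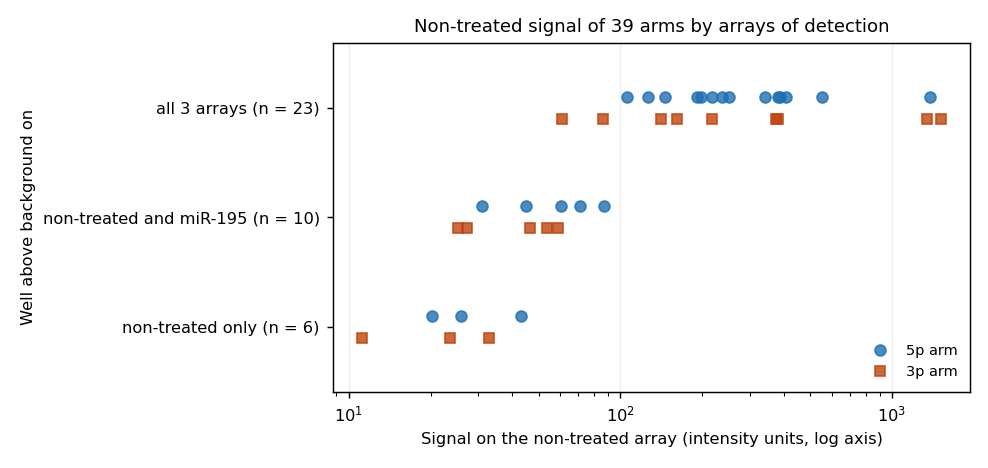
Signal on the non-treated array (intensity units, log axis) of the 39 names detected there, in rows by the arrays on which they were detected, with circles for 5p and squares for 3p arms. The 23 names detected on all 3 arrays begin at 60.9 units, and the 6 detected in non-treated cells only end at 43.1 units.

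After scaling, changes between arrays were small among the arm-named miRNAs, and few human miRNAs of any name changed at least 2-fold. The log2 differences below are relative to each array's 75th percentile over the probes detected on all 3 arrays, and were taken over names detected on both arrays. After miR-195 transfection 33 names were measured against non-treated cells, and 0 was at least 2-fold higher or lower. Over all 147 human miRNAs measured there, without the transfected ones, 2.72% were at least 2-fold higher and 0.680% at least 2-fold lower. The 33 differences ran from -0.31 for hsa-miR-361-5p (spot SD 0.17) to 0.37 for hsa-miR-338-3p (spot SD 0.28), with a median of 0.01, compared with -0.01 over the 147. Their SD was 0.20, and over the 147 it was 0.37. The median spot SD was 0.17, a scatter of single spots that is wider than the spot error of a difference between means. The median was 0.06 over the 19 5p arms and -0.13 over the 14 3p arms. hsa-miR-151-5p was the 1 name beyond 2 spot SDs, at 0.19 (spot SD 0.06). Its sign turned, to -0.34, when the percentile was taken over every probe that is not a control.

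After miR-497 transfection 23 names could be compared with non-treated cells, again with 0 at least 2-fold higher and 0 at least 2-fold lower. Among all 118 human miRNAs the shares were 3.39% and 0%. The differences ran from -0.57 for hsa-miR-486-5p (spot SD 0.16) to 0.46 for hsa-miR-483-5p (spot SD 0.21), with a median of -0.01 and 0.03 over the 118. Beyond 2 spot SDs lay 7 names. Higher were hsa-miR-483-5p, hsa-miR-574-5p at 0.38, hsa-miR-151-5p at 0.36, hsa-miR-28-5p at 0.27 and hsa-miR-140-5p at 0.20. Lower were hsa-miR-486-5p and hsa-miR-324-3p, the latter at -0.53 (spot SD 0.17). The 5 higher names were all 5p arms, as were 14 of the 23 measured names. The median difference was 0.17 for those 14 and -0.02 for the 9 3p arms.

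These directions hold relative to the scaling. Without scaling the 23 names were all dimmer on the miR-497 array, by -2.23 to -1.19 log2 units with a median of -1.67. With the normexp background the signs of hsa-miR-486-5p and hsa-miR-324-3p turned, to 0.38 and 0.14. That background adds an offset of 50 units to every spot, while these names gave 50.6 and 83.9 units on the miR-497 array. The part of the offset in the turned signs was not tested. The spot SD covers none of these choices.

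Set against each other, the arrays from transfected cells gave 23 measured names, of which 0 was at least 2-fold higher and 0 at least 2-fold lower after miR-497 than after miR-195. Over all 117 human miRNAs the shares were 1.71% and 0%. hsa-miR-486-5p was lowest at -0.37 (spot SD 0.15) and hsa-miR-574-5p highest at 0.30 (spot SD 0.13), and with hsa-miR-324-3p at -0.34 (spot SD 0.16) they were the 3 names beyond 2 spot SDs.

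**Figure D4:**
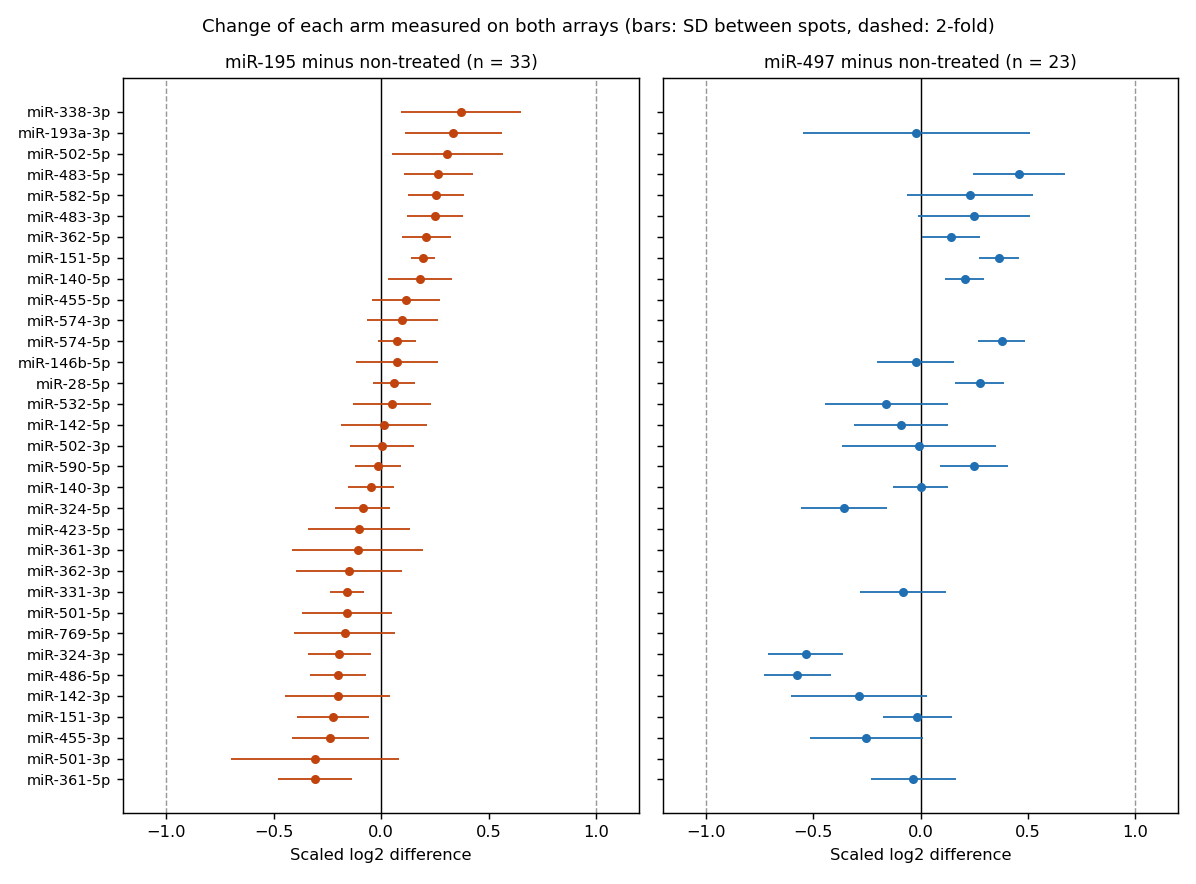
Scaled log2 difference of each arm measured on both arrays, miR-195 minus non-treated (left, 33 names) and miR-497 minus non-treated (right, 23 names), with bars for the SD between spots and dashed lines at a 2-fold change. All points lie within 2-fold, from -0.31 to 0.37 on the left and from -0.57 to 0.46 on the right.

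The 5p and 3p arms were compared by the change of their ratio within a hairpin, which cancels array scaling and probe affinity. Both arms could be measured in non-treated cells and after miR-195 for 11 hairpins, and the ratio changed at least 2-fold in 0 of them. With the asterisk-named hairpins added, 5.56% of 18 changed at least 2-fold, the 1 case being miR-363 at 1.26 log2 units. The ratio moved toward the 5p arm in 9 hairpins and toward the 3p arm in 2, miR-361 at -0.20 (spot SD 0.35) and miR-574 at -0.02 (spot SD 0.19), with a median of 0.22. miR-151 moved most, at 0.42 (spot SD 0.18), and was the 1 hairpin beyond 2 spot SDs. It was followed by miR-362 at 0.36 (spot SD 0.27), miR-455 at 0.35 (spot SD 0.24) and miR-502 at 0.30 (spot SD 0.30).

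On the miR-497 array 5 hairpins could be compared with non-treated cells, 0 of them changing at least 2-fold, while 12.5% of the 8 hairpins of both namings did, through miR-21 at 1.40 log2 units. The 5 ratios moved toward the 5p arm, by 0.38 for miR-151 (spot SD 0.19), 0.21 for miR-483 (spot SD 0.34), 0.20 for miR-140 (spot SD 0.16), 0.20 for miR-142 (spot SD 0.38) and 0.18 for miR-324 (spot SD 0.27). Only miR-151 lay beyond 2 spot SDs. Both comparisons use the same non-treated array, and an error in its arm ratios enters both with the same sign. Between the arrays from transfected cells the same 5 hairpins moved by -0.04 to 0.19, with 0 at least 2-fold, 12.5% of 8 for both namings, and none beyond 2 spot SDs.

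After miR-195, 8 or 9 of the 11 ratios moved toward the 5p arm under every processing that kept all 11, each from the same arrays. On the miR-497 array the direction of the shifts depended on processing. With the normexp background 2 of the 5 ratios on the miR-497 array moved toward the 5p arm, and miR-151 was at -0.39. An arm ratio does not cancel the 50 units that this background adds to every spot, and their part was not tested. When spots with outlier flags were kept, miR-151 was at 0.82 after miR-195 and 0.79 after miR-497, and miR-140 at 0.03 and 0.02.

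**Figure D5:**
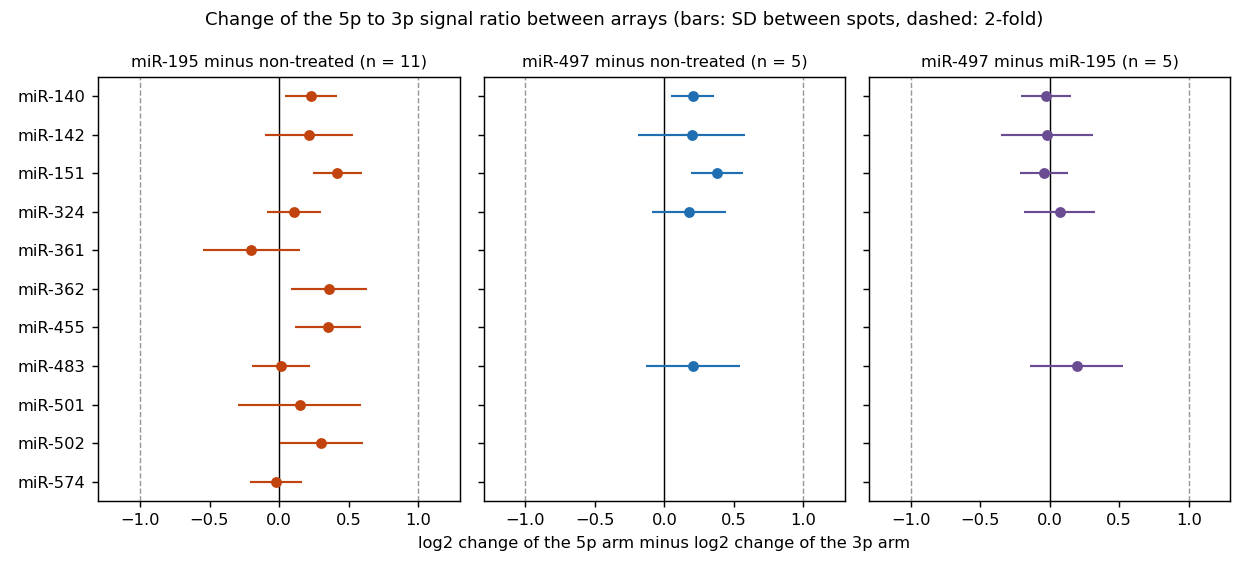
Change of the 5p to 3p signal ratio of each hairpin between arrays, as the log2 change of the 5p arm minus that of the 3p arm, with bars for the SD between spots and dashed lines at 2-fold. All points lie within 2-fold, and miR-151 at 0.42 and 0.38 is the only hairpin beyond 2 spot SDs in the comparisons with non-treated cells.

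The software's own total per miRNA, from which the deposited log2 table was made, gave arm ratio changes of at least 2-fold. Each rested on a total above the sum of the name's own significant probes. They were found in miR-361 and miR-455 after miR-195 and in miR-483 after miR-497, each against non-treated cells. For miR-361 the shift was -5.59 log2 units, from a total of 1063 units for hsa-miR-361-3p after miR-195. The significant probes of that name gave 11.8 of these units, compared with 12.4 in non-treated cells. For miR-455 it was 4.54, from a total of 577 units for hsa-miR-455-5p of which its own probes gave 26.3. The rest equalled the total of hsa-miR-455-3p on that array, 550.8 units. For miR-483 the shift was -2.76, from a total of 221 units for hsa-miR-483-3p of which its own probes gave 24.1. On that array the rest equalled the total of hsa-miR-455-5p, 197.3 units. In miR-455 and miR-483 the excess over the own probes thus matched the total of another name. No match was looked for in miR-361, and why the totals held such an excess was not tested.

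Totals above the sum of their own significant probes were found for 18 of the 150 names in non-treated cells, 21 after miR-195 and 10 after miR-497, allowing for 1% plus 0.2 units. They also produced apparent increases of single arms over non-treated cells. On the miR-195 array hsa-miR-338-3p, hsa-miR-361-3p, hsa-miR-455-5p, hsa-miR-502-3p and hsa-miR-502-5p appeared 1.12 to 5.26 log2 units higher. hsa-miR-502-3p, for example, had a total of 105 units there of which its own probes gave 36.1, compared with 45.0 of 45.0 units in non-treated cells. On the miR-497 array the names were hsa-miR-483-3p, hsa-miR-502-3p and hsa-miR-532-5p, at 1.27 to 3.25. From the summed probe signals used above, the differences of these names from non-treated cells lay within 2-fold.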

How the data were processed

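The scanner files that the authors deposited came from Agilent Feature Extraction 10.7.1.1 and held spot intensity on a linear scale with the background subtracted within each array and no scaling between arrays. The deposited table held log2 values that the authors made in GeneSpring from the software's total per miRNA, with raw signals set to at least 1. The table's first line also names a shift to the 75th percentile, but all 150 names on each array equalled the log2 of the unshifted total, set to at least 1, within 0.001. No authors' comparisons were used.

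Control spots and spots with non-uniformity or population outlier flags were left out, and 9 to 16 spots per name were used. None was saturated. The probe means of a name were added, divided by the 75th percentile of the 183 probes detected on all 3 arrays, and converted to log2. An undetected name was set to its own signal or, if larger, the lowest detected human signal of that array. That lowest signal was 11.1, 23.7 and 19.1 units in non-treated, miR-195 and miR-497 cells. A difference from such a value is not a strict limit, since undetected names reached 37.7, 33.9 and 30.8 units. With 1 array per group no test was made, and precision is limited by the number of arrays. Slide and scan, shared by the arrays, could not be fitted. The table and both kinds of intensity were handled in Python 3.11.15 with numpy 2.4.6 and pandas 2.3.3, and the normexp background (offset 50) came from limma 3.58.1 (R 4.3.3). The summary was tested on simulated spots.

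Names detected on any array were described, with their partner arms, and the other names were counted by family. The families overlapped at a few numbers, and hsa-miR-512 was counted with chromosome 19 and hsa-miR-513a with the X chromosome. The arm-named miRNAs and all lists were chosen with earlier results of these data known. Alternatives covered scaling, background, summary per miRNA, treatment of spots, detection rule, fold size and a filter at 50 units.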

Additional observations from a re-analysis of the deposited data

Results flagged for a closer look

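hsa-miR-486-3p and hsa-miR-885-5p enter no comparison above, because neither was well above background on any array, yet in the deposited table both had a value on the miR-195 array above that of non-treated cells. For hsa-miR-486-3p the deposited log2 value was 3.99, compared with 3.93 in non-treated cells, and the total behind it was 15.9 units, with 4.19 from its own significant probes. The deposited value of hsa-miR-885-5p was 4.48, compared with 0, and its significant probes accounted for 6.74 of the 22.2 units of its total, while the sum of all its probe means was 21.0 units.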

How the results depend on the processing

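No paired analysis was possible because each group held 1 array, and for the same reason no array could be left out. Of the 240 recomputed counts and medians that answer a comparison, 81.25% stayed within 1.5 times or within the spot SD, and 45 moved. Of those for single arms and arm ratios, 71.3% stayed within the spot SD. An arm ratio cancels any single factor of an array. The 21 arm ratios each without scaling and with spike-in, median or all-probe percentile scaling therefore could not move. The other detection rules leave the probe means as they are, so the arm ratios recomputed under them could not move either. These were 20 when requiring all spots, 21 when accepting 1 spot and 5 when requiring all probes. All such arm ratios are counted here as unchanged. Signs changed for 24 of 48 recomputed medians, 5 of them by more than the spot SD, for 33 of 298 arm ratios (18 by more) and for 239 of 1135 changes of single arms (154 by more). All of these were under 2-fold as reported. The causes were not tested. Fold sizes of 1.5 and 3, the filter at 50 units, quantile and median scaling, keeping all spots, the median over spots, requiring all spots, and both other probe summaries moved none of the counts and medians. The counts of 2-fold changes were 0 as reported, so the fold size of 3 and the filter could not move them. The comparisons are given in the order miR-195 and miR-497 against non-treated cells, then miR-497 against miR-195.

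Requiring all probes of a name to be well above background left 19, 19 and 8 detected names and 4, 4 and 1 hairpins with both arms on the non-treated, miR-195 and miR-497 arrays, with a median for the second comparison of 0.23. Accepting 1 spot gave 1 lower name in each of the first and second comparisons, 1 changed arm ratio in the first and a median of -0.25 in the second.

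The percentile over all non-control probes gave medians of -0.53, -1.40 and -0.86, with 22 and 5 lower names in the last 2 comparisons. Without scaling 23 names were lower in each of the last 2, with medians of -1.67 and -1.58. Spike-in scaling gave medians of 0.25, -1.32 and -1.57, and 20 and 23 lower names. Relative to the scaling used, the median of all human miRNAs moved by -1.38, -1.65 and -1.31 in the second comparison under these 3 choices, by -0.15 with quantile and by 0.11 with median scaling. The normexp background gave 1 higher name in the second comparison, hsa-miR-193a-3p at 1.07, and medians of 0.52 and 0.54 in the last 2. hsa-miR-193a-3p had 19.1 units on the miR-497 array, below the offset of 50 units added to every spot.

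The software total gave 5, 3 and 2 higher names, 2, 1 and 1 changed arm ratios and a median of 0.24 in the second comparison. The deposited table gave 7, 2 and 1 higher names, 23 and 25 lower names in the last 2, 2, 2 and 1 changed ratios, and medians of -1.55 and -1.54.

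The classes also rest on few probes. Of the detected names, 20 of 39, 15 of 34 and 15 of 23 on the non-treated, miR-195 and miR-497 arrays rested on 1 probe.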
